A study of Mus musculus with 6 samples.

Results

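Acute phase and cytokine-induced genes were examined in tissue labelled iWAT, the inguinal white fat that lies under the skin. The set was a list of 10 genes, Saa3, Hp, Lcn2, Orm1, Serpina3n, Il1rn, Il6, Tnf, Il1b and Socs3, matched by symbol through GENCODE M21 to the 15176 genes of the deposited table. Of these, 8 had a row and were analysed, and Il6 and Il1b were not analysed here. RNA came from mice fed a high-fat diet in 2 groups: 2 libraries labelled Steap4AKO (replicates 2 and 3), from mice described as lacking Steap4 in adipocytes, and 4 libraries labelled Steap4f/f (replicates 1, 2, 5 and 6), from mice that carry the floxed gene and served as controls. Steap4 encodes a metalloreductase of iron and copper, and the study asked how its loss in adipocytes affects the mitochondria of fat under this diet. The promoter that drives the deletion, the age and the sex of the mice are not given in the sources used here, and neither is the source of each library in single or pooled mice, so that p-values measure only the spread between these samples.

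Acute phase proteins are secreted proteins whose genes are switched on by interleukin 1 (IL-1), interleukin 6 (IL-6) and tumour necrosis factor (TNF). The liver is their main source, but adipocytes and the macrophages of fat make several of them, haptoglobin and lipocalin 2 among them, and their levels in obese fat are followed as signs of inflammation. IL-1 and TNF act mainly through the transcription factor NF-kB. IL-6 and leptin act through JAK kinases and STAT3, which induce Socs3, and the Socs3 protein in turn blocks the receptor.

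All values are gene counts normalized by DESeq2, as the deposited table is named. They summed to 16573561 and 17979641 in the Steap4AKO libraries, against 18846321 to 20547925 in the Steap4f/f libraries, and the number of reads behind them could not be recovered from the values. Differences were tested with limma on log2(value + 1) for the 15006 genes with a mean of at least 10, and a gene passed at a Benjamini-Hochberg adjusted p under 0.05. Each of the 8 genes passed the filter on low values. Folds are ratios of group means, and log2 differences are Steap4AKO minus Steap4f/f. Steap4, the deleted gene, did not separate the groups, so these data do not bear out the genotype labels, and Steap4AKO and Steap4f/f are used here as labels. Steap4 was read in all cells of the tissue, so that a deletion described in adipocytes alone cannot be checked by it. Its value was 8313 and 8014 in Steap4AKO, against 17018, 9417, 8310 and 8851 in Steap4f/f (adjusted p = 0.544, limma). Steap4AKO replicate 2 lay just above Steap4f/f replicate 5, and Steap4f/f replicate 1 alone stood apart.

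The libraries differed in their markers of cell types. Steap4AKO replicate 2 stood apart from every other library, and with the markers of epididymis and mesothelium given below its labelled depot is in doubt. Each Steap4AKO mean includes it, so for each of the 8 genes the log2 difference without covariates is also given without it. The log2 differences of other single genes are given only with it. All 12 macrophage markers were highest in it, with sums of 35048 and 9930 in Steap4AKO replicates 2 and 3, against 10760 to 12571 in Steap4f/f. All 9 mesothelial markers measured were more than 2-fold above every other library in it, with sums of 3458 and 32.4 in Steap4AKO replicates 2 and 3, against 57.4 to 472.9 in Steap4f/f. The highest Steap4f/f sum was that of replicate 6. The 2 epididymal genes analysed of 12 listed, Crisp1 and Adam7, summed to 8274 and 0 in Steap4AKO, against 0 to 3.34 in Steap4f/f. These 2 passed the filter on low values only through Steap4AKO replicate 2. The others listed, Lcn5, Lcn8, Lcn9, Lcn12, Crisp4, Defb20, Cst8, Cst11, Spint4 and Ros1, had no row. Adipocyte markers (10 of 10) summed to 318642 and 491201 in Steap4AKO, against 506094 to 669219 in Steap4f/f, and Adipoq, which encodes adiponectin, was at 21862 or higher in every library. Skeletal muscle markers (16 of 16) summed to 2270 and 19444 in Steap4AKO, against 150239 to 818944 in Steap4f/f, and 6 of the 16 passed the threshold, all lower in Steap4AKO. Because these sums did not overlap between the groups, a fit with an index of these markers as a covariate cannot separate muscle from group. In that fit none of the 8 genes passed, as none did without the index. The log2 difference was then 1.82 for Saa3 (limma adjusted p = 0.426), 3.53 for Il1rn (adjusted p = 0.355), 4.94 for Lcn2, 1.40 for Tnf and -1.66 for Socs3. Orm1, at -0.98, was the 1 gene of the 8 at an unadjusted p under 0.05 in that fit (limma adjusted p = 0.283).

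**Figure D1:**
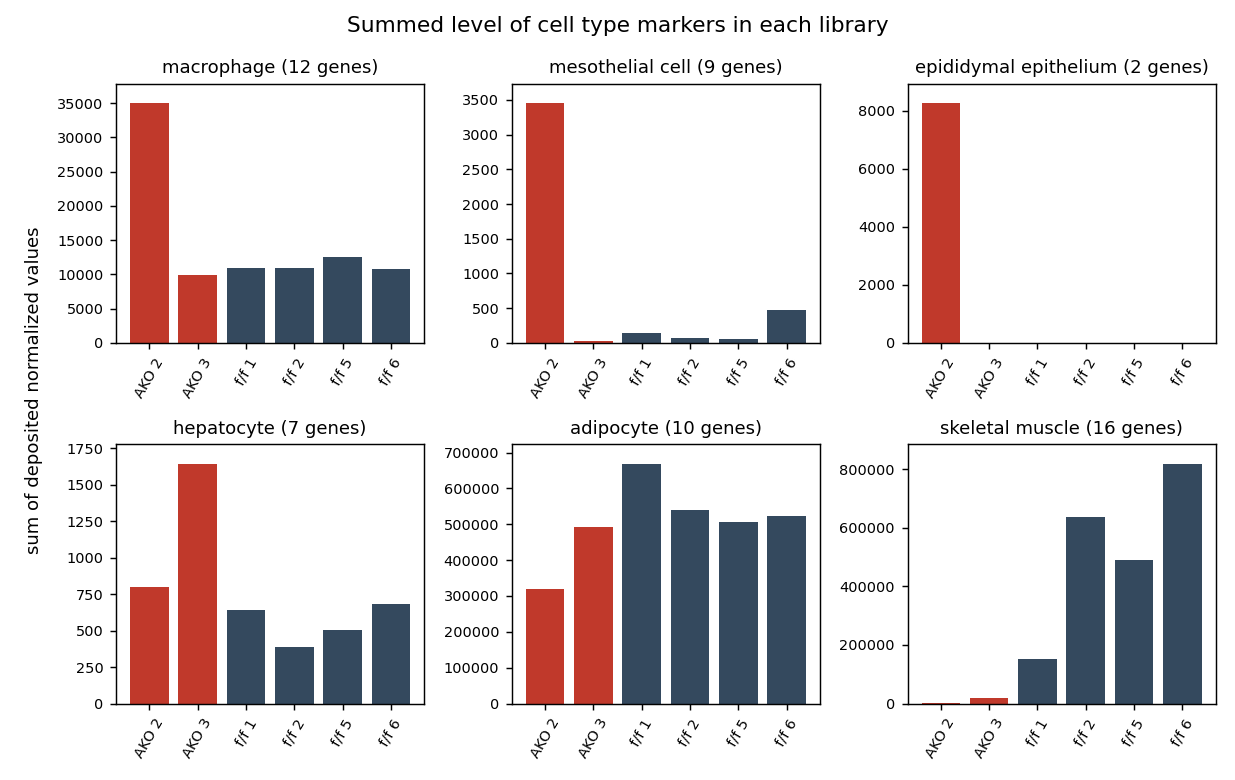
Sums of the deposited normalized values over 6 lists of cell type markers, 1 bar per library on a linear axis from 0, with the 2 Steap4AKO libraries in red on the left and the 4 Steap4f/f libraries in dark blue. The macrophage sum of Steap4AKO replicate 2 is 35048 and the other 5 libraries lie between 9930 and 12571, while hepatocyte sums are 798 and 1644 in Steap4AKO, against 388 to 681 in Steap4f/f.

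Hepatocyte markers, 7 of 8 analysed, summed to 798 and 1644 in Steap4AKO, against 388 to 681 in Steap4f/f. Apob, the apolipoprotein of liver and gut lipoproteins, had 57.0 and 73.8 in Steap4AKO and was listed at 0 in all 4 Steap4f/f libraries. Neutrophils were represented by 2 of 10 markers, with sums of 82.9 and 33.5 in Steap4AKO, against 18.6 to 38.2 in Steap4f/f. Sums for T and NK cells (6 of 8) were 289 and 179 in Steap4AKO, against 54.2 to 161 in Steap4f/f. Those for B cells (5 of 6) were 16848 and 13137 in Steap4AKO, against 1641 to 10870 in Steap4f/f. Endothelial markers (8 of 8) summed to 25010 and 27409 in Steap4AKO, against 23737 to 24432 in Steap4f/f, and stromal markers (10 of 10) to 68720 and 73310 in Steap4AKO, against 88555 to 110118 in Steap4f/f. In bulk tissue, fewer cells of a type and less RNA per cell cannot be told apart.

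None of the 8 genes passed the threshold, where 0.473% of all genes tested did (0.04% higher and 0.433% lower in Steap4AKO). That share, 71 genes, moved to 238 genes without Steap4f/f replicate 1 and to 1 without any other single Steap4f/f library. Counts without 1 of the Steap4AKO libraries are not given, because a single Steap4AKO library was then left. At an unadjusted p under 0.05 there were 2 of the 8, Saa3 and Il1rn, both higher in Steap4AKO and neither in the fit with the muscle index, against 18.1% of all genes tested (8.45% higher and 9.66% lower). The count of the 8 genes that passed was 0 as well in each alternative fit that kept both Steap4AKO libraries. The mean log2 value was higher in Steap4AKO for 5 of the 8 genes, against 52.2% of all genes tested. The median log2 difference of the 8 genes was 0.67, beside 0.02 over all genes tested. It was 0.21 without Steap4AKO replicate 2. In that library alone the 8 genes had a median of 1.13 above the Steap4f/f mean on the log2 scale.

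Single libraries led most of the 8 genes. Steap4AKO replicate 2 was the highest library for 5 of the 8 genes, Saa3, Hp, Lcn2, Il1rn and Tnf, against 27% of all genes tested. For 4 of them, all but Tnf, it lay more than 2-fold above every other library, against 6.48% of all genes tested. Steap4f/f replicate 1 was highest for the other 3, Orm1, Serpina3n and Socs3, against 21.3% of all genes tested, and lay more than 2-fold above every other library for 1 of 8, Socs3, against 0.986% of all genes tested. A single gene, Saa3, had both Steap4AKO libraries above all 4 Steap4f/f libraries, a share of the 8 close to the 14.1% of all genes tested that were higher in this way. No gene was lower without overlap, against 14.4% of all genes tested.

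**Figure D2:**
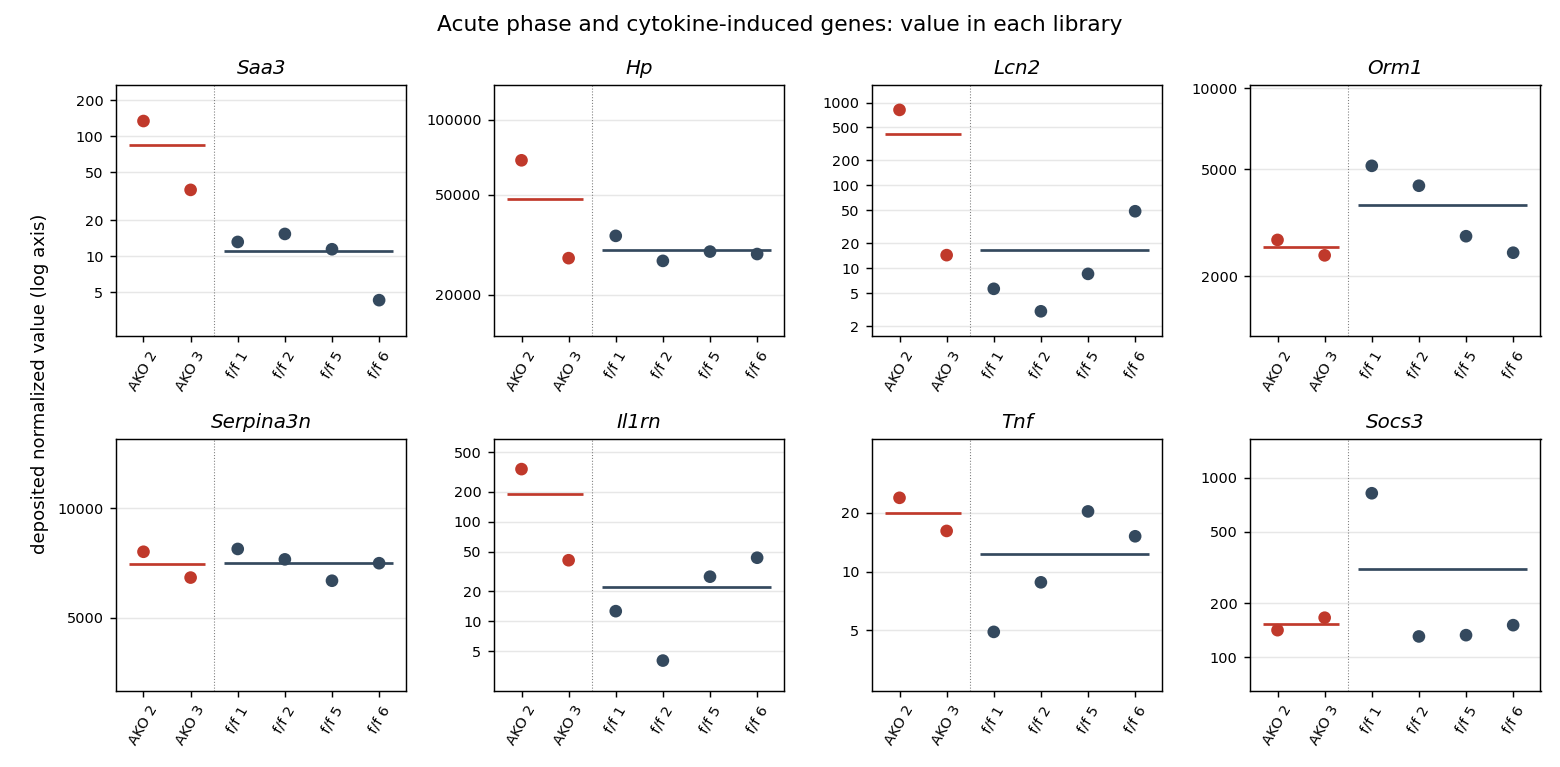
Deposited normalized value of each of the 8 genes in every library, on log axes, with the 2 Steap4AKO libraries in red on the left and the 4 Steap4f/f libraries in dark blue. Points are libraries and horizontal lines are group means. Lcn2 stands at 814.6 and 14.4 in Steap4AKO, against 3.03 to 48.8 in Steap4f/f, and Socs3 at 821.1 in Steap4f/f replicate 1 alone.

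Levels differed widely between the genes. Per kilobase of annotated exon (the union of all GENCODE M21 exons of the gene), Hp had a mean level of 30120 in Steap4AKO and 18736 in Steap4f/f, where it ranked 34 among all genes. Orm1 had 3307 in Steap4AKO and 4765 in Steap4f/f per kilobase, and Serpina3n had 3400 in Steap4AKO and 3432 in Steap4f/f per kilobase. In Steap4f/f, 99.0% of genes lay below Orm1 and 98.5% below Serpina3n. Socs3 was in the middle of the range, with 53.3 per kilobase in Steap4AKO and 107 in Steap4f/f. The other 4 genes were low in Steap4f/f: the mean levels per kilobase were 4.23 for Saa3, 6.30 for Lcn2, 3.98 for Il1rn and 7.51 for Tnf, so that at most 12.3% of genes lay below any of them. In Steap4AKO the means per kilobase were 32.5 for Saa3, 158 for Lcn2, 34.2 for Il1rn and 12.2 for Tnf. The 3 abundant genes also varied least within Steap4f/f, where the highest library was 1.26-fold above the lowest for Hp, 1.22-fold for Serpina3n and 2.10-fold for Orm1, against 3.57-fold for Saa3, 16.1-fold for Lcn2 and 10.8-fold for Il1rn.

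Saa3 encodes the serum amyloid A protein that mice make mainly outside the liver, in adipocytes and macrophages. The gene lies on the minus strand of chromosome 7, from 46711998 to 46715700 (GRCm38). Its value was 133.8 and 35.7 in Steap4AKO, against 13.1, 15.3, 11.4 and 4.29 in Steap4f/f. Both Steap4AKO libraries were above every Steap4f/f library, replicate 3 by 2.33-fold over the highest of them. The mean was 84.8 ± 69.4 in Steap4AKO (SD, n = 2) and 11.03 ± 4.77 in Steap4f/f (SD, n = 4), a 7.68-fold higher mean with a log2 difference of 2.66 (SE 0.76, 95% interval 0.91 to 4.42, limma adjusted p = 0.153). Without Steap4AKO replicate 2 the log2 difference was 1.73. Of its 50-base stretches, 3.57% also occur in other genes.

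Promoter stretches are shown for Saa3 and for Il1rn, because these were the 2 genes with the smallest p. Each stretch runs from base 250 to base 31 before the RefSeq start of transcription (GRCm38.p6), and none of its bases lies in a GENCODE M21 exon. Capitals mark matches, on either strand, to a C/EBP motif (TTGCNNAA, or TTNNGCAA on the other strand), an NF-kB motif (GGGA, any 4 bases, CC), a STAT motif (TTCNNNGAA) or an AP-1 motif (TGANTCA). The last 2 motifs read the same on both strands.
Saa3, chr7:46715707-46715926, minus strand: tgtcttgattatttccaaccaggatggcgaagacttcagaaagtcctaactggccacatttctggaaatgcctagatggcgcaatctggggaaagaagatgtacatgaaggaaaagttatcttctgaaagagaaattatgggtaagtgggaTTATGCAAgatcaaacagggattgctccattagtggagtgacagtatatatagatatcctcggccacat
Il1rn, chr2:24336610-24336829, plus strand: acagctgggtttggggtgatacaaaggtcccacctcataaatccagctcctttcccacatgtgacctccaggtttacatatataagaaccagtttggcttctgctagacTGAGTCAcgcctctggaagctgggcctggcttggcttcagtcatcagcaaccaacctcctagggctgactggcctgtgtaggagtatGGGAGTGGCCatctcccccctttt

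All 250 bases before the start were searched. In these windows the Saa3 promoter held 1 C/EBP match, TTATGCAA, which began 99 bases before the start. The Il1rn promoter shown, the first of 3 in RefSeq, held an AP-1 match, TGAGTCA, at 141 bases and an NF-kB match, GGGAGTGGCC, at 54 bases before the start. Il1rn windows 2 and 3 held none of the 4 motifs. Promoter windows were also read for Lcn2, which held a C/EBP match, TTGCTCAA, at 216 bases, and for Socs3, which held a STAT match, TTCTTAGAA, at 154 bases and an NF-kB match, GGGAGGGGCC, at 97 bases. Of the 220 bases up to base 31 before the start, 167 lie in GENCODE M21 exons in the Lcn2 window and 55 in the Socs3 window, and the bases just after the RefSeq starts of Socs3 and Serpina3n were not found near the start of a GENCODE M21 transcript of the gene. The Serpina3n window held 2 NF-kB matches and the Tnf window held none of the 4 motifs. Of 32851 RefSeq promoter windows of 250 bases, 17.6% held the NF-kB motif, 9.56% the C/EBP motif, 7.02% the STAT motif and 6.75% the AP-1 motif. A match is a run of letters and does not show binding. Windows for Hp and Orm1 were not used here.

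Lcn2 encodes lipocalin 2, a secreted protein that binds bacterial siderophores and so withholds iron (chromosome 2, 32384633 to 32388252, minus strand). Its value was 814.6 and 14.4 in Steap4AKO, against 5.66, 3.03, 8.58 and 48.8 in Steap4f/f. Steap4AKO replicate 2 was 16.7-fold above the next library, which was Steap4f/f replicate 6, and Steap4AKO replicate 3 lay within the Steap4f/f range. The mean was 414.5 ± 565.8 in Steap4AKO (SD, n = 2) and 16.5 ± 21.6 in Steap4f/f (SD, n = 4), with a log2 difference of 3.40 (SE 1.58, 95% interval -0.27 to 7.06, limma adjusted p = 0.304). Without Steap4AKO replicate 2 it was 0.54.

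The 2 libraries highest for Lcn2 were also the 2 highest for 8 of the 9 mesothelial markers, and for Il1rn. The share of all genes tested with the same 2 highest libraries was not computed, so this count cannot be weighed. Only 4 of the mesothelial markers passed the filter on low values without Steap4AKO replicate 2. Steap4AKO replicate 2 by itself was highest for 27% of all genes tested. Upk3b, a uroplakin of mesothelium named after its values were seen, had 781.0 and 0 in Steap4AKO, against 2.24, 0, 1.19 and 167.1 in Steap4f/f. Msln, the mesothelin gene, had 346.3 and 0 in Steap4AKO, against 24.6, 5.03, 2.37 and 77.3 in Steap4f/f. Crisp1, a gene of the epididymis, had 8127 in Steap4AKO replicate 2 and at most 3.34 elsewhere. The part of mesothelial and epididymal cells in the Lcn2, Hp and Saa3 values was not tested.

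Hp encodes haptoglobin, which binds free haemoglobin (chromosome 8, 109575128 to 109579172, minus strand). Its value was 68781 and 27966 in Steap4AKO, against 34332, 27272, 29709 and 29047 in Steap4f/f. Steap4AKO replicate 2 was 2.00-fold above the next library, and Steap4AKO replicate 3 lay within the Steap4f/f range. The mean was 48373 ± 28861 in Steap4AKO (SD, n = 2) and 30090 ± 3009 in Steap4f/f (SD, n = 4), with a log2 difference of 0.55 (SE 0.34, 95% interval -0.25 to 1.35, limma adjusted p = 0.432). Without Steap4AKO replicate 2 the log2 difference turned to -0.10, and without Steap4AKO replicate 3 it was 1.20.

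Orm1 encodes alpha-1-acid glycoprotein, a plasma protein that binds drugs and lipids (chromosome 4, 63344560 to 63348163, plus strand). Its value was 2732 and 2394 in Steap4AKO, against 5155, 4347, 2821 and 2449 in Steap4f/f. The groups overlapped, and Steap4f/f replicates 1 and 2 were the high libraries. The mean was 2563 ± 239 in Steap4AKO (SD, n = 2) and 3693 ± 1275 in Steap4f/f (SD, n = 4), with a log2 difference of -0.46 (SE 0.30, 95% interval -1.15 to 0.23, limma adjusted p = 0.442). It was -0.56 without Steap4AKO replicate 2. Of the 50-base stretches of its transcripts, 20.4% also occur in Orm2 or Orm3, so that reads could have been divided between the 3 genes. Orm2 had 52.3 and 12.2 in Steap4AKO, against 5.54, 0, 4.67 and 6.39 in Steap4f/f, far below Orm1.

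Serpina3n encodes a serine protease inhibitor that inactivates granzyme B and neutrophil proteases (chromosome 12, 104406729 to 104414329, plus strand). Its value was 7589 and 6447 in Steap4AKO, against 7725, 7233, 6320 and 7060 in Steap4f/f, with every library inside a narrow band. The mean was 7018 ± 807 in Steap4AKO (SD, n = 2) and 7084 ± 582 in Steap4f/f (SD, n = 4). The log2 difference was -0.01 (SE 0.15, 95% interval -0.36 to 0.33, limma adjusted p = 0.969), and its sign changed with the scaling. It was -0.13 without Steap4AKO replicate 2. Among the 8 genes it had the narrowest interval. Of its 50-base stretches, 6.90% are shared with other genes of the Serpina3 cluster.

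**Figure D3:**
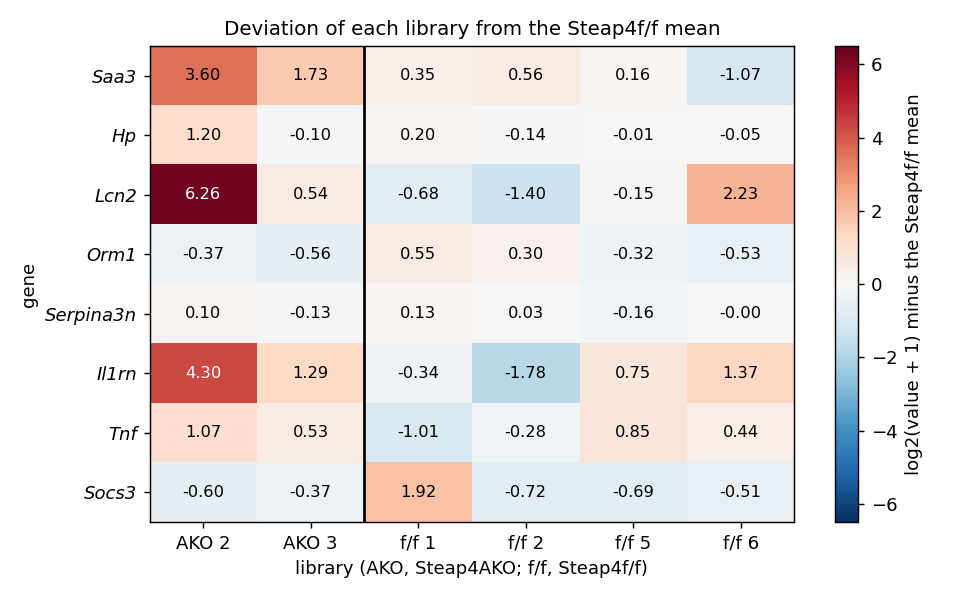
Log2(value + 1) of each gene in each library minus the mean of the 4 Steap4f/f libraries, printed in each cell and coloured from blue (below) to red (above), with the Steap4AKO libraries left of the black line. Steap4AKO replicate 2 is 6.26 above for Lcn2, 4.30 for Il1rn and 3.60 for Saa3, and Steap4f/f replicate 1 is 1.92 above for Socs3.

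Il1rn encodes the IL-1 receptor antagonist, which occupies the IL-1 receptor without signalling (chromosome 2, 24336853 to 24351494, plus strand). Its value was 338.1 and 41.0 in Steap4AKO, against 12.6, 4.01, 28.0 and 43.4 in Steap4f/f. Steap4AKO replicate 2 was 7.78-fold above the next library, again Steap4f/f replicate 6, and Steap4AKO replicate 3 was just below that library. The mean was 189.5 ± 210.1 in Steap4AKO (SD, n = 2) and 22.01 ± 17.4 in Steap4f/f (SD, n = 4). The log2 difference was 2.79 (SE 1.07, 95% interval 0.31 to 5.28, limma adjusted p = 0.235), and 1.29 without Steap4AKO replicate 2.

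Macrophages make the IL-1 receptor antagonist. All 12 macrophage markers were highest in Steap4AKO replicate 2, as Il1rn was. Steap4AKO replicate 3 had the lowest macrophage sum, 9930, with Il1rn at 41.0, near the highest Steap4f/f value of 43.4. Trem2, a lipid receptor of macrophages named after its values were seen, had 1591 and 91.4 in Steap4AKO, against 65.6, 116.0, 192.9 and 118.1 in Steap4f/f. Itgax, the gene of the integrin CD11c, had 1677 and 222.5 in Steap4AKO, against 72.4, 92.5, 148.2 and 61.1 in Steap4f/f. In Steap4AKO replicate 2, Trem2 was 12.9-fold and Itgax 17.9-fold above the Steap4f/f mean. Other markers of the list, also named after their values were seen, rose less, with 1.72-fold for Mrc1 and 1.61-fold for C1qa. The part of macrophages in the values of Il1rn, Saa3, Lcn2, Hp and Tnf was not tested.

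Tnf encodes TNF, a cytokine that fat macrophages release (chromosome 17, 35199381 to 35202007, minus strand). Its value was 23.9 and 16.2 in Steap4AKO, against 4.90, 8.80, 20.4 and 15.2 in Steap4f/f. The groups overlapped. The mean was 20.03 ± 5.48 in Steap4AKO (SD, n = 2) and 12.3 ± 6.83 in Steap4f/f (SD, n = 4), with a log2 difference of 0.80 (SE 0.75, 95% interval -0.93 to 2.53, limma adjusted p = 0.598). It was 0.53 without Steap4AKO replicate 2. Tnf in Steap4AKO replicate 2 was 1.17-fold above Steap4f/f replicate 5, the next library. Both values are low, and whether Tnf followed the macrophage markers was not tested.

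Socs3 encodes the feedback inhibitor of receptors that signal through JAK and STAT3 (chromosome 11, 117966079 to 117970047, minus strand). Its value was 141.9 and 166.5 in Steap4AKO, against 821.1, 130.9, 133.1 and 151.3 in Steap4f/f. Steap4f/f replicate 1 was 5.93-fold above the mean of the other 3 Steap4f/f libraries, and the remaining 5 libraries lay close together. The mean was 154.2 ± 17.4 in Steap4AKO (SD, n = 2) and 309.1 ± 341.5 in Steap4f/f (SD, n = 4), with a log2 difference of -0.49 (SE 0.72, 95% interval -2.15 to 1.17, limma adjusted p = 0.746). It was -0.37 without Steap4AKO replicate 2. Without Steap4f/f replicate 1 the log2 difference turned to 0.15 (SE 0.24, adjusted p = 0.782).

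Of the 20 other JAK-STAT3 genes listed, 4 were more than 2-fold higher in Steap4f/f replicate 1 than in any other library, against 0.986% of all genes tested, and are named after their values were seen. Cish, which encodes an inhibitor of STAT5 signalling, had 411.1 and 304.8 in Steap4AKO, against 3392, 90.9, 225.2 and 47.0 in Steap4f/f. Socs1, an inhibitor of interferon signalling, had 54.6 and 65.1 in Steap4AKO, against 271.6, 34.9, 59.0 and 79.6 in Steap4f/f. Socs2, an inhibitor of growth hormone signalling, had 159.8 and 189.5 in Steap4AKO, against 595.3, 195.0, 131.9 and 172.2 in Steap4f/f. Cebpd, a transcription factor that acts on acute phase genes, had 268.0 and 263.4 in Steap4AKO, against 759.1, 307.2, 326.7 and 303.4 in Steap4f/f. Socs7 and Socs5, other inhibitors of this family on the list, also named after their values were seen, did not share this pattern. Socs7 had 357.9 and 404.3 in Steap4AKO, against 298.2, 484.1, 619.7 and 721.9 in Steap4f/f, with Steap4f/f replicate 1 the lowest library. Socs5 had 740.6 and 519.7 in Steap4AKO, against 504.4, 413.1, 443.1 and 514.9 in Steap4f/f. Steap4 was 1.81-fold above the next library in Steap4f/f replicate 1 as well.

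**Figure D4:**
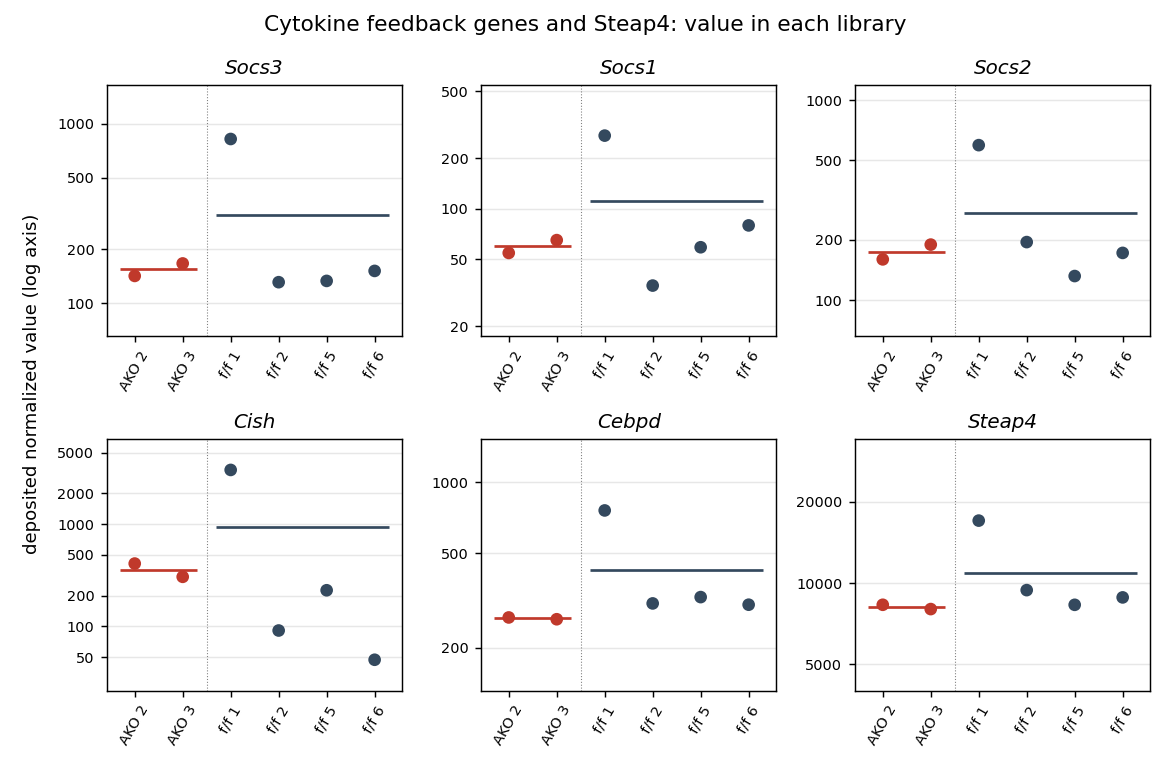
Deposited normalized values of Socs3, the 4 JAK-STAT3 genes more than 2-fold higher in Steap4f/f replicate 1 than elsewhere, and Steap4 in every library, on log axes, with Steap4AKO in red on the left and Steap4f/f in dark blue. Points are libraries and horizontal lines are group means. In all 6 panels Steap4f/f replicate 1 is the highest point, at 821.1 for Socs3 and 3392 for Cish.

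The list of JAK-STAT3 signalling genes and targets had 20 of 20 genes tested, and none passed the threshold. In Steap4AKO the mean log2 value was higher for 10 and lower for 10, and the differences had a median of -0.06. The smallest p-values were those of Stat3, Cebpb and Stat5a. Stat3, the transcription factor downstream of IL-6, had 3663 and 3559 in Steap4AKO, against 2888, 2364, 2268 and 3042 in Steap4f/f (log2 difference 0.46, limma adjusted p = 0.201). The 2 groups did not overlap. Cebpb, a C/EBP factor of acute phase genes and of adipocyte differentiation, had 1889 and 2118 in Steap4AKO, against 2584, 2411, 3505 and 2867 in Steap4f/f (log2 difference -0.49, adjusted p = 0.206). Stat5a, which transmits growth hormone and prolactin signals, had a log2 difference of -0.44 (adjusted p = 0.24). Of the 20 genes, 3 were higher and 2 lower without overlap in Steap4AKO, against 14.1% and 14.4% of all genes tested. The 2 lower ones were Cebpb and Cebpd.

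The NF-kB list had 25 of 25 genes tested, with none past the threshold. The mean log2 value was higher for 22 and lower for 3 in Steap4AKO, where 52.2% of all genes tested were higher. The differences had a median of 0.26. For 5 of the 25 genes both Steap4AKO libraries lay above all 4 Steap4f/f libraries, against 14.1% of all genes tested. Tnfaip3, the ubiquitin-editing protein A20 that limits NF-kB, had 503.1 and 319.5 in Steap4AKO, against 173.2, 179.1, 218.2 and 203.6 in Steap4f/f (log2 difference 1.05, limma adjusted p = 0.0988). Ikbkg, the regulatory subunit of the kinase that frees NF-kB, had 1164 and 995.6 in Steap4AKO, against 629.2, 725.6, 709.4 and 721.5 in Steap4f/f (log2 difference 0.63, adjusted p = 0.0969). Vcam1, an adhesion molecule of endothelium, had 696.5 and 371.1 in Steap4AKO, against 335.3, 261.5, 244.8 and 264.3 in Steap4f/f (log2 difference 0.89, adjusted p = 0.176). All 3 were without overlap and higher in Steap4AKO, and replicate 2 was the higher of the 2 Steap4AKO libraries in each. Without Steap4AKO replicate 2 the median of the list was 0.14. It was 0.29 without Steap4AKO replicate 3. Calls of that fit are not given, because replicate 2 was then the single Steap4AKO library.

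**Figure D5:**
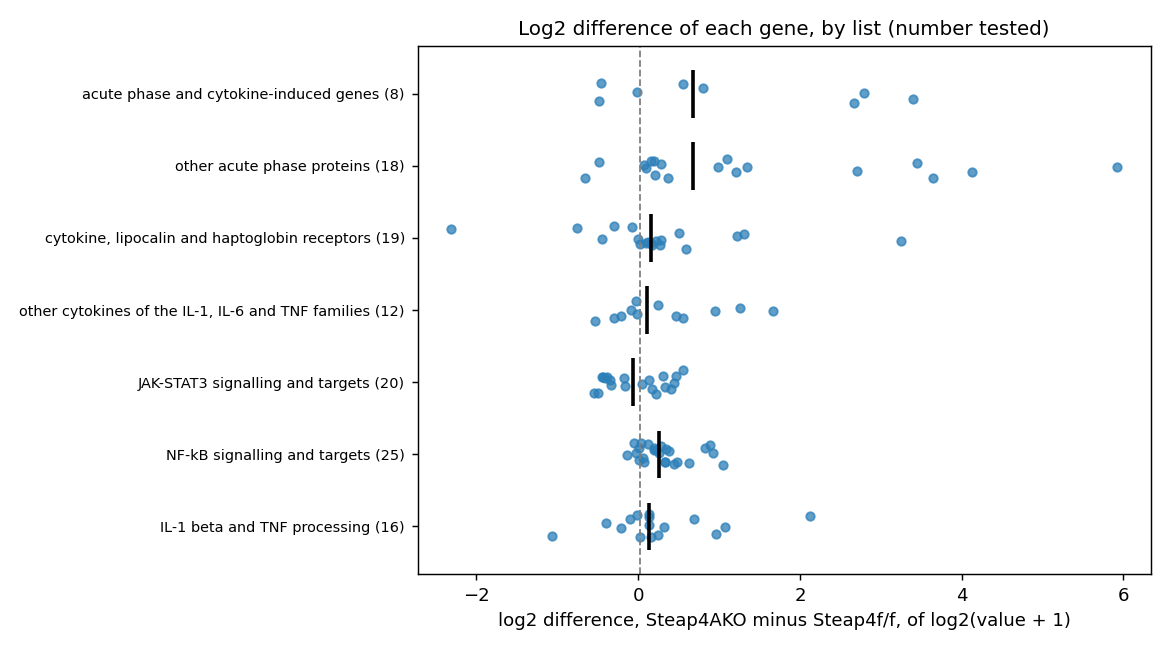
Log2 difference (Steap4AKO minus Steap4f/f, on log2(value + 1)) of each gene tested in 7 lists, 1 point per gene, scattered vertically for visibility, with the list median as a black bar. The dashed line is the median of all genes tested, 0.02, and the medians are 0.67 for the 8 acute phase and cytokine-induced genes, 0.68 for other acute phase proteins and -0.06 for JAK-STAT3 genes.

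Of 28 other acute phase genes listed, 19 had a row and 18 were tested. None passed the threshold. The mean log2 value was higher for 16 and lower for 2 in Steap4AKO, where 52.2% of all genes tested were higher. The differences had a median of 0.68, or 0.36 over the 14 genes still tested without Steap4AKO replicate 2. That median was 0.29 with a pseudocount of 5, and 0.14 over the 8 genes left by a filter at a mean of 50. Ahsg passed the threshold with a pseudocount of 5, where 123 of all genes tested did. Calls without Steap4AKO replicate 3 are not given, because replicate 2 was then the single Steap4AKO library. The smallest p-values belonged to low genes that the liver makes. Ahsg, Hpx and Fga, given next, reached a mean of 10 only through their Steap4AKO values. The filter on low values thus tilts the count and the median of this list upward. Ahsg, the gene of fetuin-A, had 59.5 and 59.8 in Steap4AKO and was listed at 0 in all 4 Steap4f/f libraries (limma adjusted p = 0.0615). Hpx, which encodes the haem-binding protein hemopexin, had 27.2 and 31.9 in Steap4AKO, against 5.57, 0, 3.55 and 1.06 in Steap4f/f (adjusted p = 0.179). Fga, the fibrinogen alpha chain gene, had 24.3 and 35.1 in Steap4AKO, against 7.95, 0, 0 and 0 in Steap4f/f (adjusted p = 0.182). The hepatocyte markers Apob and Ttr showed the same order of groups, with Ttr at 49.6 and 48.0 in Steap4AKO, against 0, 0, 1.18 and 0 in Steap4f/f, whereas Alb, the albumin gene, had 493.5 and 1269 in Steap4AKO, against 622.9, 376.0, 488.9 and 676.5 in Steap4f/f. Their part in the values of Hp and Orm1, which hepatocytes also make, was not tested.

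Among the abundant acute phase genes, Lrg1, which encodes a leucine-rich glycoprotein of plasma, had 14576 and 7931 in Steap4AKO, against 8626, 8442, 8524 and 9741 in Steap4f/f, with a log2 difference of 0.29 (limma adjusted p = 0.551). Cp, the gene of ceruloplasmin, the copper-dependent ferroxidase, had 1600 and 2723 in Steap4AKO, against 4774, 2810, 2414 and 3671 in Steap4f/f, with a log2 difference of -0.66 (adjusted p = 0.304). Lbp, which encodes the lipopolysaccharide-binding protein, had 6360 and 3565 in Steap4AKO, against 905.1, 2579, 2852 and 1836 in Steap4f/f, with a log2 difference of 1.35 (unadjusted p = 0.0186, adjusted p = 0.194). In Lbp alone of these 3 genes the groups did not overlap. The 3 genes are named after their values were seen.

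Of 20 receptors for these proteins and cytokines, 19 were tested and none passed the threshold. The mean log2 value was higher for 13 and lower for 6 in Steap4AKO, where 52.2% of all genes tested were higher. The differences had a median of 0.15. That median was 0.13 without Steap4AKO replicate 2 and 0.18 without Steap4AKO replicate 3. Calls without replicate 3 are not given, because replicate 2 was then the single Steap4AKO library. Tnfrsf1b, TNF receptor 2, had 1311 and 642.0 in Steap4AKO, against 331.5, 378.3, 518.2 and 363.8 in Steap4f/f (log2 difference 1.22, limma adjusted p = 0.115). Il6ra, the IL-6 receptor, had 968.6 and 1055 in Steap4AKO, against 811.1, 602.4, 585.4 and 699.8 in Steap4f/f (log2 difference 0.60, adjusted p = 0.159). Tlr2, a receptor of bacterial lipoproteins, had 207.3 and 94.0 in Steap4AKO, against 31.3, 50.4, 86.8 and 70.9 in Steap4f/f (log2 difference 1.31, adjusted p = 0.238). In each of these the Steap4AKO libraries lay above all Steap4f/f libraries. That held for 4 of the 19 receptors, against 14.1% of all genes tested. For 1 of the 19, Il1r1, an IL-1 receptor named after its values were seen, both lay below, against 14.4% of all genes tested. It had 511.0 and 535.2 in Steap4AKO, against 2056, 727.9, 608.5 and 676.8 in Steap4f/f.

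Receptors that take up or mute the ligands are named after their values were seen. Cd163, the macrophage receptor of haptoglobin bound to haemoglobin, had 662.8 and 630.3 in Steap4AKO, against 454.5, 426.1, 589.5 and 734.8 in Steap4f/f. Slc22a17, a lipocalin 2 receptor, had 314.7 and 387.9 in Steap4AKO, against 548.4, 462.9, 443.0 and 305.9 in Steap4f/f. Both pairs of groups overlapped. Lrp2, the endocytic receptor megalin of epithelia, had 213.8 and 0 in Steap4AKO, against 0, 0, 0 and 4.72 in Steap4f/f, so that Steap4AKO replicate 2 and Steap4f/f replicate 6 were again the libraries in which it was above 0. Il1r2, the IL-1 decoy receptor, had 8.13 and 106.0 in Steap4AKO, against 255.1, 172.8, 162.1 and 79.7 in Steap4f/f (log2 difference -2.32, limma adjusted p = 0.239).

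Of 20 other cytokines of the IL-1, IL-6 and TNF families 12 were tested, and none passed the threshold. The mean log2 value was higher for 6 and lower for 6 in Steap4AKO, and the differences had a median of 0.11, or -0.03 without Steap4AKO replicate 2. Without Steap4f/f replicate 1, 1 gene passed, Lep. Lep, which encodes leptin, the satiety hormone of adipocytes, had 55202 and 43434 in Steap4AKO, against 8106, 18214, 22141 and 17433 in Steap4f/f (log2 difference 1.66, limma adjusted p = 0.0988). Steap4f/f replicate 1, the library with the highest Socs3, had the lowest Lep. Tnfsf10, which encodes the death ligand TRAIL, had 608.1 and 788.1 in Steap4AKO, against 464.2, 421.3, 465.9 and 533.9 in Steap4f/f (log2 difference 0.56, adjusted p = 0.18). Ltb, a lymphotoxin chain, had a log2 difference of 1.26 (adjusted p = 0.397).

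The list of IL-1 beta and TNF processing genes had 16 of 16 genes tested, none past the threshold. The mean log2 value was higher for 11 and lower for 5 in Steap4AKO, where 52.2% of all genes tested were higher. The differences had a median of 0.13, or -0.08 without Steap4AKO replicate 2. Il1rl2, the receptor of IL-36, had 214.5 and 310.8 in Steap4AKO, against 861.5, 547.4, 495.5 and 366.2 in Steap4f/f (log2 difference -1.06, limma adjusted p = 0.177), with both Steap4AKO libraries below every Steap4f/f library. In this list 2 genes were lower and 1 higher without overlap, against 14.4% and 14.1% of all genes tested. Aim2, a DNA sensor, and Nlrp1b, an inflammasome sensor, had log2 differences of 0.96 and 2.12 (adjusted p = 0.284 and 0.31). In Aim2 the groups overlapped, with 116.9 and 73.7 in Steap4AKO, against 36.7, 44.9, 74.8 and 40.3 in Steap4f/f.

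The genes whose pattern over the 6 libraries was most like Saa3, among 11080 genes with a mean of at least 100, were Cd93, Ccnd2 and Ccdc88b. Their Pearson r with Saa3 on log2(value + 1) was 0.997, 0.997 and 0.995, and 0.991, 0.991 and 0.985 over the 5 libraries without Steap4AKO replicate 2. Cd93 had 3291 and 2584 in Steap4AKO, against 2013, 2118, 2032 and 1707 in Steap4f/f. The genes most like Lcn2 were Ssr3, Mindy1 and Tmem37, with r of 0.995, 0.994 and 0.988 (0.974, 0.979 and 0.992 without Steap4AKO replicate 2). Tmem37 had 295.6 and 109.9 in Steap4AKO, against 71.3, 64.0, 88.6 and 156.9 in Steap4f/f. These r values describe 6 points that share libraries and scaling, and 2.65% and 2.09% of the genes compared had an r over 0.9 with Saa3 and Lcn2.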

How the data were processed

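RNA sequencing of iWAT gave 2 Steap4AKO and 4 Steap4f/f libraries, grouped by sample title. The authors deposited a signal per gene: DESeq2-normalized counts, going by the table's name. Per the submitters' processing notes, DESeq2 1.12.4, R 4.2.0, RSEM 1.3.3 and STAR 2.7.0e were used, with mm10 and GRCm38 named as builds, in no stated role or order. Annotation and strandedness are not given in the sources used here, so that overlapping transcripts on opposite strands could not be separated. At the best step of each column 51.6 to 59.0% of low values lay within 0.1 of a whole multiple, so whole reads could not be derived, and neither count models nor counting intervals were used. The lowest row of the table reached 11.8 in its highest library, so low genes may be absent.

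Symbols were matched by Ensembl identifier to GENCODE M21 (15125 of 15176 genes). limma 3.58.1 in R 4.3.3 was run with a variance trend on log2(value + 1), without covariates, for genes with a mean of at least 10, with two-sided tests and Benjamini-Hochberg adjustment over all genes tested. The script was tested on simulated data. Figures were drawn with matplotlib 3.10.9 in Python 3.11.15. Promoter sequences are from RefSeq (GRCm38.p6), in which 8 of the 10 genes matched.

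The genes and lists were chosen with earlier results of these data known. Beside the listed genes, the text names Steap4, the genes past the threshold in each pathway list or else the 3 with the smallest p, and the 3 genes most correlated with Saa3 and with Lcn2. Others are said to be named after their values were seen. Alternatives were other pseudocounts, filters, scalings, array weights, a robust prior, a muscle index as covariate and each library left out.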

Additional observations from a re-analysis of the deposited data

Results flagged for a closer look

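Among the 4 Steap4f/f libraries, single libraries stood far from the other 3 for several of the values given, by Dixon's test at a critical gap of 0.829 of the range. Of 69 values examined 14 stood apart in this way. Chance flags about 1 in 20 groups of normally distributed values, but this rate is no yardstick for the count. The values were tested without a log, and 25 of them, 7 of the 14 among them, belong to genes named after their values were seen. For Fga, Fgb and Lrp2 the other Steap4f/f libraries were all at 0, so that any value above 0 in 1 library would be flagged. Steap4f/f replicate 1 was high for Socs3 at 821.1 (others 130.9 to 151.3), for Cish at 3392 (47.0 to 225.2), for Socs2 at 595.3 (131.9 to 195.0), for Cebpd at 759.1 (303.4 to 326.7) and for Steap4 at 17018 (8310 to 9417). It was low for Ikbkg, at 629.2 (709.4 to 725.6). It was also the 1 Steap4f/f library above 0 for Fga, at 7.95, and for Fgb, the fibrinogen beta chain gene, at 11.2.

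Steap4f/f replicate 6 was high for Lcn2 at 48.8 (others 3.03 to 8.58), for Upk3b at 167.1 (0 to 2.24) and for Lrp2 at 4.72, where the others were listed at 0. It was high as well for Lrg1 at 9741 (8442 to 8626) and for Mindy1, the second gene most like Lcn2, at 1168 (1010 to 1030). The sum of the macrophage markers was high in Steap4f/f replicate 5, at 12571 (10760 to 10983). Many of these genes vary together, so the flags are not independent of each other. Groups of 2 libraries, such as Steap4AKO, were not examined in this way.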

How the results depend on the processing

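No gene of the 8 passed the threshold under any alternative that kept both Steap4AKO libraries. Of 126 differences of single genes recomputed under the 16 alternatives, 118 kept their sign. The 8 that changed sign were 6 of Serpina3n, 1 of Hp and 1 of Socs3. Serpina3n was at 0.0042 under upper quartile scaling, 0.17 under total scaling, 0.12 under quantile normalization and 0.0156 with array weights, and between -0.13 and 0.10 with single libraries left out. Total scaling moved the median of all genes to 0.21, so that its 0.17 lies below that shift. Hp ranged from -0.10 to 1.20 and Socs3 from -0.73 to 0.15 with single libraries left out. The median of the 8 genes was between 0.21 and 1.13 with single libraries left out, and 0.27 with a filter at a mean of 50, which removed Saa3 and Tnf. The count of all genes past the threshold was unstable. It was 71 as reported, 1 with a pseudocount of 0.5, with the filter at a mean of 50, with the robust prior and with the muscle covariate, 123 with a pseudocount of 5 and 119 with array weights. With single libraries left out it ranged from 1 to 821, and it was 821 without Steap4AKO replicate 3 and 238 without Steap4f/f replicate 1. The cause was not tested. Leaving out 1 Steap4AKO library left a single one, which was assumed to vary like the other group. For those fits only log2 differences are given. No paired analysis was possible because the groups share only 1 replicate number. Reads per library were not recovered, so the precision of Saa3, Lcn2, Il1rn and Tnf, whose Steap4f/f values are low, is known only from the spread between libraries.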
